A study of Mus musculus with 8 samples.

Results

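The genes described here are 6 genes of the first steps of branched-chain amino acid (BCAA) breakdown (Bcat2, Bckdha, Bckdhb, Dbt, Bckdk and Ppm1k) and Klf15, a transcription factor gene linked to that pathway in the heart. They were taken by their gene symbol, with no threshold on a measured value, and make up 7 of the 23045 genes in the deposited table. Poly-A-independent (total) RNA from mouse hearts was sequenced, with 4 libraries from WT hearts and 4 from Mettl3 KO hearts. The WT mice were Mettl3lox/lox, so that the controls carried the floxed Mettl3 alleles as well, and the Mettl3 KO mice were Mettl3lox/lox:alphaMHC-MerCreMerpos. Per the methods, mice of both genotypes were 10 to 16 weeks old and received tamoxifen (100 µg per 1 g of body weight) on 7 days. The alphaMHC promoter drives the tamoxifen-activated Cre recombinase in cardiomyocytes, so that by design Mettl3 stays intact in the other cells of the heart. Mice with Cre and without floxed alleles were not analysed here, so effects of Cre and of the loss of Mettl3 cannot be told apart. The labels number the libraries and do not say outright that each came from a separate animal, and if any did not, the p-values measure the spread between libraries only.

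Leucine, isoleucine and valine are broken down in mitochondria. BCAT2, the mitochondrial branched-chain aminotransferase, removes the amino group reversibly. The branched-chain keto acid dehydrogenase complex (BCKDH) then carries out the irreversible, committed step. Its E1 component consists of the alpha and beta subunits encoded by Bckdha and Bckdhb, its E2 core is encoded by Dbt, and its E3 component, DLD, is shared with the pyruvate and 2-oxoglutarate dehydrogenase complexes. The kinase BCKDK phosphorylates the E1 alpha subunit and switches the complex off, and the phosphatase PPM1K removes the phosphate and switches it on. KLF15 is a Krüppel-like factor that is induced by glucocorticoids, follows the circadian clock, and is known in heart and muscle as an activator of BCAA breakdown genes. METTL3 is the catalytic subunit of the complex that places N6-methyladenosine (m6A) on RNA.

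None of the 7 genes passed an adjusted p of 0.05 between Mettl3 KO and WT hearts in the test over all genes. Their log2 fold changes (Mettl3 KO over WT) lay between -0.16 and 0.09, with 5 below 0 and 2 above 0, and a median of -0.07. In the same limma fit 1607 of 20313 tested genes, or 7.91%, passed an adjusted p of 0.05, of which 958 (4.72%) were higher and 649 (3.19%) lower in Mettl3 KO, and the median over all tested genes was -0.01. At an unadjusted p under 0.05 there were 2 of the 7 genes (Ppm1k and Bckdhb), against 20.6% of all tested genes. Of the 6423 tested genes with a mean between 100 and 1000 normalized read counts, 14.7% passed the adjusted threshold. The median size of a change, regardless of sign, was 0.09 in that level range and 0.09 among the 7 genes. With limma voom the count of passing members was also 0 of 7.

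As a check of the labels, Mettl3 was at 105, 133, 118 and 107 normalized read counts in WT and at 74, 68, 69 and 78 in Mettl3 KO libraries (log2 fold change -0.67, SE 0.10, adjusted p = 0.000184 by limma). Esr1, whose hormone-binding part the MerCreMer transgene carries, was at 16.8 ± 2.87 in WT and 769 ± 67.5 in Mettl3 KO as normalized read counts (SD, n = 4, log2 fold change 5.45, adjusted p = 1.35e-19 by limma). The libraries held 2631902 to 3060987 reads assigned to genes, as recovered from the rounded values, and counting error adds to the spread between hearts. Bulk heart RNA mixes cell types, and fewer cells of a type cannot be told apart from less RNA per cell. Summed levels of 7 cardiomyocyte markers were 22615 to 23776 in WT and 21051 to 23653 in Mettl3 KO libraries, and 1 of the 7 passed (Ryr2, the sarcoplasmic calcium release channel, log2 fold change -0.23). Ryr2 made up a large part of that sum, at 9666 to 10427 in WT and 7975 to 9017 in Mettl3 KO. It was the only marker of the list below 0, while 6 lay above 0, and the list median was 0.05. The fibroblast marker sum was 2396 to 2678 in WT and 3064 to 3393 in Mettl3 KO, with 5 of 6 markers higher. The endothelial marker sum was 3427 to 3647 against 2982 to 3270, with 3 of 5 markers lower, of which Cdh5 missed the threshold when WT replicate 2 (adjusted p = 0.0598 by limma) or Mettl3 KO replicate 3 (adjusted p = 0.0626 by limma) was left out. Of the macrophage list 1 of 5 was lower (Cd163, which missed the threshold in 5 of 17 alternatives, including the omission of WT replicate 1 or 3 or Mettl3 KO replicate 3 or 4, with adjusted p by limma from 0.0503 to 0.0862) and of the skeletal muscle list 0 of 6 passed. Over all tested genes 4.72% were higher and 3.19% lower. Adipocytes, which also break down BCAA, left almost no defining transcripts, since Adipoq, Plin1, Cfd and Retn were at 0 to 4 in each library, while Fabp4, which endothelial cells express as well, was lower (log2 fold change -0.22, adjusted p = 0.0363 by limma) but missed the threshold in 7 of 17 alternatives, including the omission of WT replicate 1 or 4 or Mettl3 KO replicate 1, 3 or 4 (adjusted p by limma from 0.0653 to 0.156). Without the mean-variance trend in limma, Lum, a fibroblast gene, was the marker of these lists that passed (adjusted p = 0.0482). Values of 2 atrial genes, chosen after they were seen, are given for each library. Myl7 (atrial light chain) was at 23, 65, 90 and 119 in Mettl3 KO and at 26, 21, 0 and 23 in WT libraries, so that Mettl3 KO replicates 2 to 4 lay above all WT libraries. Bmp10, another atrial gene, had 0 in all WT libraries and in Mettl3 KO replicate 1, and 195, 158 and 358 in the other Mettl3 KO libraries. The part of these shifts in the values below was not tested.

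Because METTL3 methylates adenosine within short RNA motifs of which GGACT is the common core, the GGACT nearest to the stop codon is shown for each of the 7 transcripts. The sequences are 25 bases from the longest coding transcript in the GENCODE annotation of GRCm38, written 5′ to 3′ with the motif in capitals, and only the given strand was searched.
Bcat2: ttgggtctcaGGACTcagctgctcc
Bckdha: tcatgtaccgGGACTacccgctgga
Bckdhb: ccaggccaagGGACTtctgttgtca
Dbt: tgcttctctgGGACTcctgcagttt
Bckdk: tcagacaggtGGACTtagatggagc
Ppm1k: ctgacctctgGGACTactgcaacag
Klf15: ttcctcatcaGGACTagaaattagt
The motif occurred 8 times in Bckdk, 4 times in Ppm1k, 2 times each in Bcat2 and Bckdhb, and once each in Bckdha, Dbt and Klf15. Of the 8 in Bckdk, 6 lay after the stop codon, the nearest starting 123 bases beyond it. Counted in bases from the stop codon, the motif shown began at 210 in Bcat2 and at 691 in Klf15. It began at -835 in Bckdha, -510 in Bckdhb, -495 in Dbt and -557 in Ppm1k, where a minus sign means before the stop codon. Per kb of transcript, Bckdk held 2.35 motifs, which is higher than in 93.9% of 14322 genes. Bckdhb held 1.35, Bcat2 0.96, Ppm1k 0.72, Bckdha 0.53, Klf15 0.40 and Dbt 0.30 per kb, beside a median of 1.05 over all genes, of which 92.7% hold at least 1. The motif is a match of letters, and m6A itself was not measured in these libraries.

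Bcat2 (ENSMUSG00000030826, mm39 chr7:45219577-45239135, plus strand) encodes the first enzyme of the pathway. It was at 295, 267, 298 and 248 normalized read counts in WT and at 315, 252, 240 and 250 in Mettl3 KO libraries. The groups overlapped, and replicate 1 of Mettl3 KO was the highest library of all while the other 3 Mettl3 KO libraries lay close to the lowest WT library. The log2 fold change was -0.07 (SE 0.08, 95% interval -0.24 to 0.10, adjusted p = 0.699 by limma). Without that library it was -0.16 (SE 0.07, adjusted p = 0.207 by limma). Bcat1, the cytosolic aminotransferase, was at only 5 to 9 in WT and 9 to 22 in Mettl3 KO libraries and did not pass (log2 fold change 0.78, SE 0.31, adjusted p = 0.141 by limma).

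Bckdha (ENSMUSG00000060376, mm39 chr7:25329371-25358406, minus strand), the gene of the E1 alpha subunit that carries the regulatory phosphorylation, was at 357, 385, 387 and 337 in WT and at 366, 380, 376 and 373 in Mettl3 KO libraries. The Mettl3 KO values fell entirely inside the WT range. The log2 fold change was 0.03 (SE 0.06, adjusted p = 0.841 by limma), and its 95% interval of -0.09 to 0.15 corresponds to 94.0% to 111% of WT.

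Bckdhb (ENSMUSG00000032263, mm39 chr9:83807198-84006293, plus strand), the gene of the partner E1 beta subunit, was at 218, 223, 211 and 219 in WT and at 190, 203, 202 and 186 in Mettl3 KO libraries. It was the only gene of the 7 whose groups did not overlap, which held for 11.5% of all tested genes. The mean in Mettl3 KO was 89.7% of WT (log2 fold change -0.16, SE 0.07, 95% interval -0.30 to -0.02), with an unadjusted p of 0.0272 and a adjusted p = 0.171 by limma. The difference is therefore not called.

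Dbt (ENSMUSG00000000340, mm39 chr3:116306719-116343630, plus strand), which encodes the E2 core that binds the E1 component and the kinase, was at 454, 427, 454 and 420 in WT and at 458, 417, 425 and 379 in Mettl3 KO libraries. Replicates 2 and 4 of Mettl3 KO were below all WT libraries and replicate 1 was above them. The log2 fold change was -0.07 (SE 0.06, 95% interval -0.19 to 0.06, adjusted p = 0.604 by limma). Dld, the shared E3 gene, was at 782 to 821 in WT and 793 to 865 in Mettl3 KO (log2 fold change 0.06, adjusted p = 0.465 by limma).

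Bckdk (ENSMUSG00000030802, mm39 chr7:127503254-127509393, plus strand), the kinase gene, was at 182, 203, 177 and 174 in WT and at 160, 170, 179 and 165 in Mettl3 KO libraries. Of the Mettl3 KO libraries 3 were below every WT library, and replicate 3 lay among them. The log2 fold change was -0.12 (SE 0.08, 95% interval -0.28 to 0.03, adjusted p = 0.382 by limma).

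Ppm1k (ENSMUSG00000037826, mm39 chr6:57483487-57512453, minus strand), the phosphatase gene, was at 909, 811, 1013 and 867 in WT and at 875, 781, 758 and 826 in Mettl3 KO libraries. The groups overlapped, with 2 Mettl3 KO libraries below all WT libraries. The mean in Mettl3 KO was 90.0% of WT (log2 fold change -0.15, SE 0.06, 95% interval -0.27 to -0.03), with an unadjusted p of 0.0181 and a adjusted p = 0.132 by limma. It ranged from 0.0511, without Mettl3 KO replicate 1, to 0.452 over 17 alternative settings and passed in none.

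**Figure D1:**
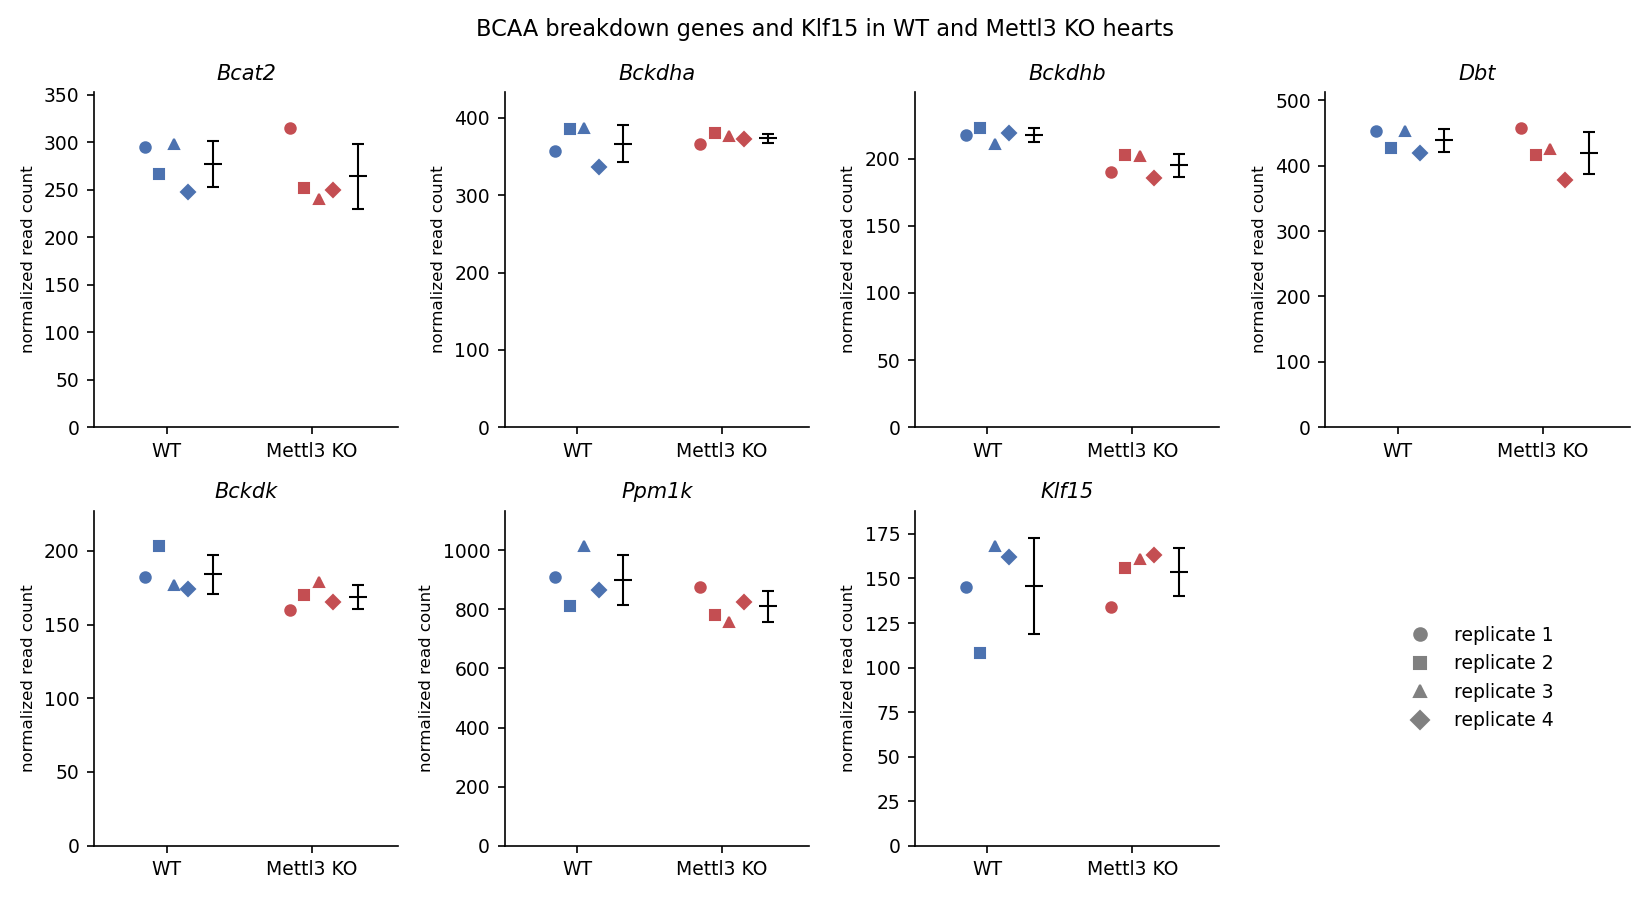
Normalized read counts (linear axes from 0) of the 6 BCAA breakdown genes and Klf15 in 4 WT (blue) and 4 Mettl3 KO (red) libraries, with the symbol giving the replicate number and the black mark and bar the mean and SD. The Bckdhb values of Mettl3 KO (186 to 203) lie below those of WT (211 to 223), and the groups overlap for the other genes.

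Levels were compared per kb of exon, with all annotated exons of a gene merged, and on this length the order of the 7 genes was the same in both genotypes. In WT hearts Bckdha was highest at 193 ± 12.6 normalized read counts per kb (SD, n = 4), followed by Ppm1k at 149.5 ± 14.2, Dbt at 131 ± 5.33, Bckdhb at 120.6 ± 2.77, Bcat2 at 71.0 ± 6.12, Klf15 at 52.2 ± 9.67 and Bckdk at 49.8 ± 3.54. In Mettl3 KO hearts the same sequence ran from 196.8 ± 3.11 for Bckdha to 45.6 ± 2.19 for Bckdk. Ppm1k and Dbt overlapped between libraries in both genotypes, as did Klf15 and Bckdk, and the other neighbours in this order did not overlap. The middle of the order depends on the length used. With the length of the longest coding transcript, chosen after seeing the data, Bcat2 was at 133.1 ± 11.5 and Bckdhb at 147.4 ± 3.38 per kb in WT (SD, n = 4), and Ppm1k, Bckdhb, Bcat2 and Dbt each overlapped with the next. Bckdha had the highest mean and Klf15 and Bckdk the lowest 2 in both genotypes with either length. The phosphatase transcript was more abundant per length than the kinase transcript in every library, with a ratio of 2.45 to 3.51 in WT and 2.60 to 3.36 in Mettl3 KO per kb of exon, and of 2.45 to 3.50 and 2.59 to 3.35 per transcript length.

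Ratios within a library are independent of library scaling and compare the transcripts of the complex and its regulators. Bckdhb to Bckdha, the E1 subunits, was 0.611, 0.579, 0.545 and 0.650 in WT, and it was 0.519, 0.534, 0.537 and 0.499 in Mettl3 KO, as a ratio of normalized read counts. All 4 Mettl3 KO libraries lay below all WT libraries, with little room between 0.537 and 0.545. This ratio was looked at with the values of both genes known and is given without a test. Dbt to Bckdha was 1.11 to 1.27 in WT and 1.02 to 1.25 in Mettl3 KO, and overlapped. Ppm1k to Bckdk, phosphatase over kinase, was 4.00 to 5.72 in WT and 4.24 to 5.47 in Mettl3 KO, so that the Mettl3 KO range lay within that of WT.

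**Figure D2:**
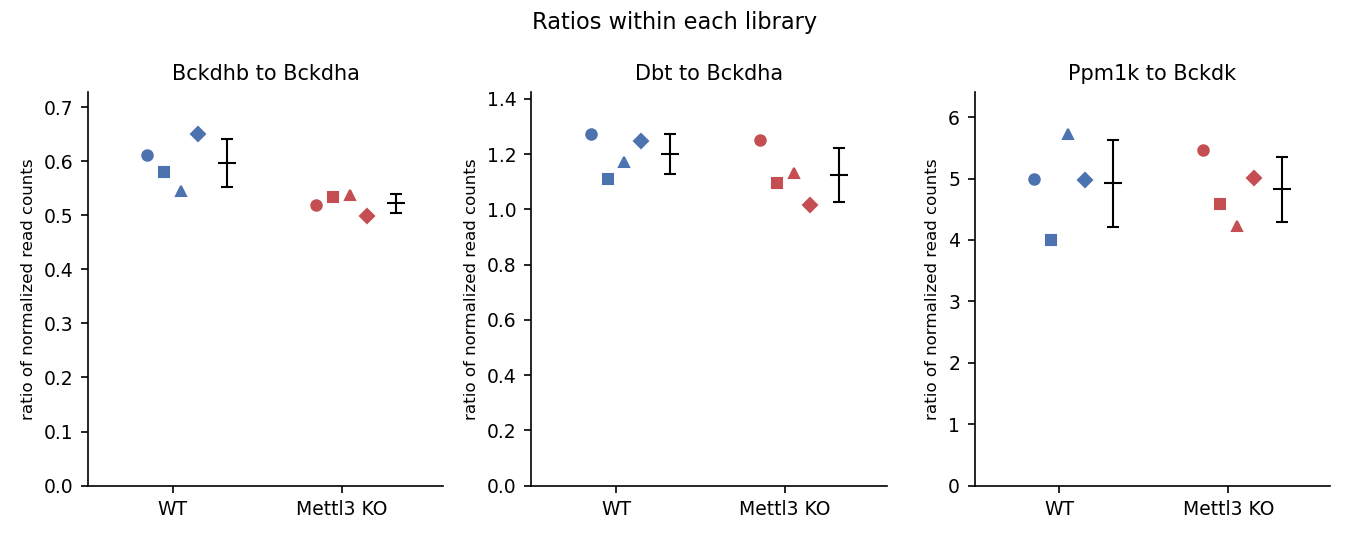
Ratios of normalized read counts within each library (linear axes from 0) for the E1 subunits (Bckdhb to Bckdha), the E2 core over E1 alpha (Dbt to Bckdha) and the phosphatase over the kinase (Ppm1k to Bckdk), in WT (blue) and Mettl3 KO (red), with the mean and SD in black. The first ratio is 0.545 to 0.650 in WT and 0.499 to 0.537 in Mettl3 KO, and the other ratios overlap.

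Past the BCKDH step the carbon skeletons take separate routes, and here single enzymes passed the adjusted threshold in the reported fit. Whether they passed more often than the genes of the first steps, or than other genes of similar level, was not tested. Of 22 further enzymes 21 were tested, and Agxt2 was not analysed here. The list holds Bcat1, Dld and the enzymes that finish the breakdown of leucine, isoleucine and valine, including the route from propionyl-CoA to succinyl-CoA. Of these, 3 were higher and 1 was lower in Mettl3 KO (19.0%, against 7.91% of all tested genes and 14.7% of those with a mean of 100 to 1000, where most of the list lies), and the list median was -0.01. Abat, a transaminase best known for degrading GABA and also acting on a valine intermediate, rose from 100, 105, 88 and 83 to 127, 149, 133 and 159 (log2 fold change 0.59, SE 0.10, adjusted p = 0.00047 by limma). Mmut, the methylmalonyl-CoA mutase, rose from 630, 643, 614 and 636 to 732, 762, 784 and 753 (log2 fold change 0.26, SE 0.04, adjusted p = 0.000435 by limma). Mcee, the epimerase that acts just before it, rose from 139, 140, 155 and 148 to 191, 178, 176 and 177 (log2 fold change 0.31, SE 0.07, adjusted p = 0.0109 by limma). Aldh6a1, the methylmalonate semialdehyde dehydrogenase of the valine route, fell from 768, 720, 777 and 761 to 625, 626, 635 and 593 (log2 fold change -0.29, SE 0.05, adjusted p = 0.000255 by limma). The libraries of the genotypes did not overlap for these 4 of the 21 tested enzymes, against 11.5% of all tested genes. The 4 genes passed the threshold on the same values, so this is no separate evidence. Without the mean-variance trend in limma none of the 4 passed (adjusted p from 0.0504 to 0.0736). Pcca and Pccb, the propionyl-CoA carboxylase subunits that precede Mcee and Mmut, did not pass (log2 fold changes 0.03 and -0.12, adjusted p = 0.225 by limma for Pccb). On the leucine route none of Ivd, Mccc1, Mccc2 and Auh passed, with Auh nearest to the threshold at -0.19 (SE 0.07, adjusted p = 0.0883 by limma). On the isoleucine route Acadsb (-0.09), Hsd17b10 (0.00) and Acat1 (0.01) did not pass either.

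**Figure D3:**
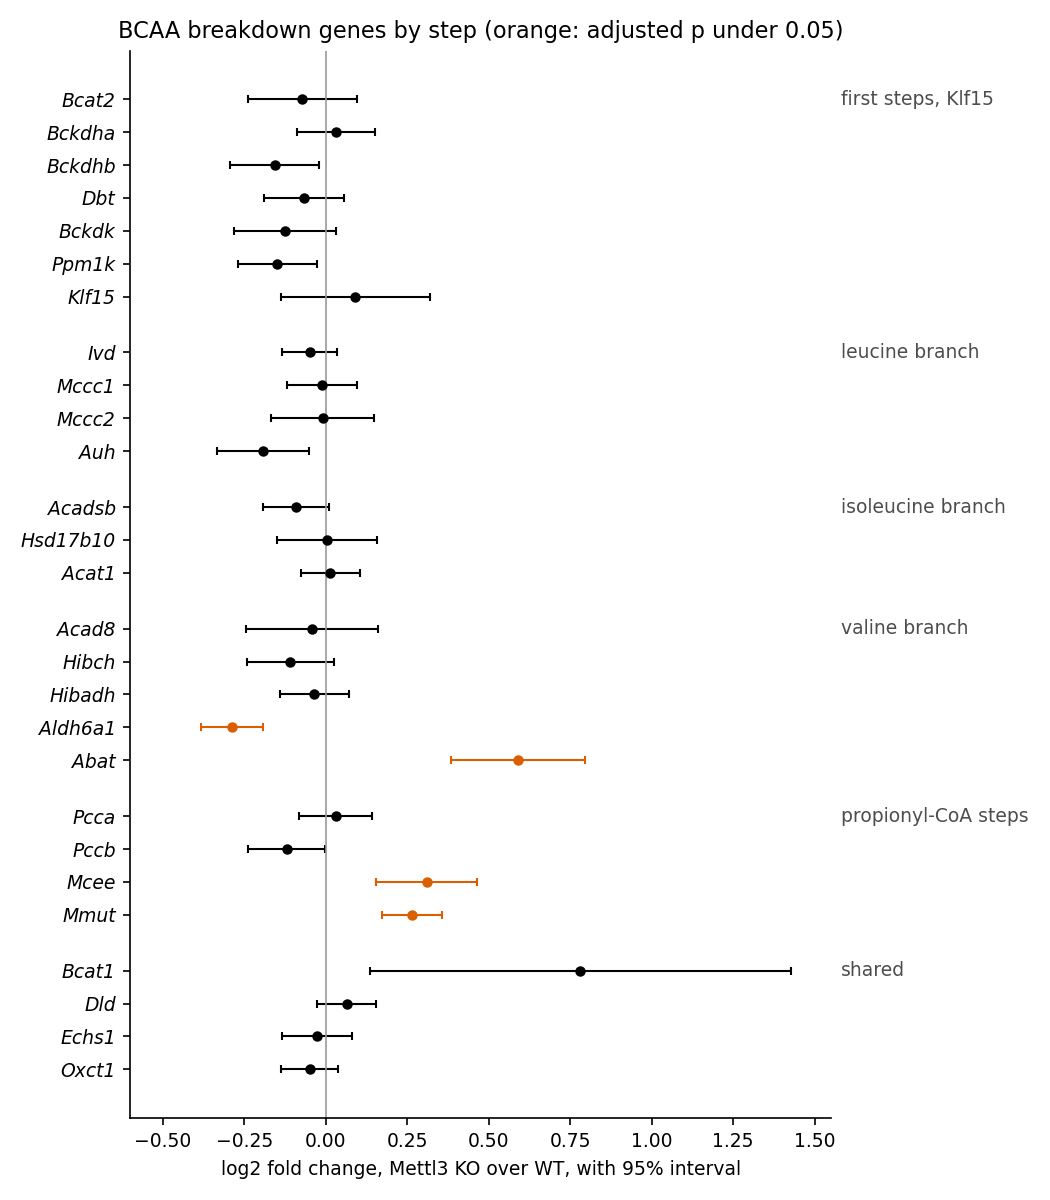
Log2 fold change (Mettl3 KO over WT, points) with its 95% interval (bars) for the 7 genes and for other BCAA breakdown enzymes, grouped by route, with orange marking a limma adjusted p under 0.05. The 7 genes lie between -0.16 and 0.09, and the marked enzymes are Abat (0.59), Mcee (0.31), Mmut (0.26) and Aldh6a1 (-0.29).

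Of 8 transport genes for BCAA and their keto acids 7 were tested and 1 passed (14.3%, against 7.91% of all tested genes and 14.7% at a mean of 100 to 1000). Slc7a5, Slc7a8 and Slc43a1 lie below that range of means. The gene that passed was Slc43a2 (LAT4, a facilitative transporter of large neutral amino acids), at 235, 256, 226 and 189 in WT and at 296, 323, 250 and 283 in Mettl3 KO (log2 fold change 0.35, SE 0.09, adjusted p = 0.0133 by limma). It did not pass without WT replicate 4 (0.26, adjusted p = 0.0668 by limma) or without Mettl3 KO replicate 2 (0.29, adjusted p = 0.0808 by limma). Nor did it pass without the mean-variance trend (adjusted p = 0.195 by limma). Slc25a44, the mitochondrial BCAA carrier, was at 90 to 129 in WT and 99 to 122 in Mettl3 KO (log2 fold change 0.05, adjusted p = 0.864 by limma). Slc16a1, a monocarboxylate transporter that also carries keto acids, was at 745 to 779 and 688 to 868 (log2 fold change -0.01, adjusted p = 0.961 by limma).

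BCKDH belongs to a family of complexes that includes pyruvate dehydrogenase (PDH), which is likewise switched off by kinases and on by phosphatases. The list of 14 genes for the sister complexes had 3 higher and 1 lower in Mettl3 KO (28.6%, against 7.91% of all tested genes and 14.7% at a mean of 100 to 1000), with a median of 0.05. Pdha1, Dlat, Ogdh and Dlst lie above that range of means and Pdk3 lies below it. The 3 higher genes were the PDH phosphatase genes and their regulator. Pdp2 rose from 262, 268, 253 and 230 to 353, 378, 382 and 358 (log2 fold change 0.54, SE 0.06, adjusted p = 6.99e-06 by limma). Pdp1 rose from 258, 263, 243 and 274 to 386, 353, 325 and 332 (log2 fold change 0.42, SE 0.07, adjusted p = 0.000184 by limma). Pdpr, the regulatory subunit of the phosphatase, rose from 553, 560, 616 and 568 to 677, 668, 640 and 645 (log2 fold change 0.20, SE 0.05, adjusted p = 0.0132 by limma), and did not pass without WT replicate 1 (0.18, adjusted p = 0.0536 by limma). The PDH kinase genes did not pass, although the genotypes did not overlap for Pdk1, Pdk2 and Pdk3. Such separation was found for 6 of the 14 genes, against 11.5% of all tested genes. Pdk2 was at 580 to 596 in WT and 498 to 548 in Mettl3 KO (log2 fold change -0.15, adjusted p = 0.0564 by limma). Pdk1 was at 634 to 684 and 543 to 626 (-0.16, adjusted p = 0.0718 by limma), and the sparsely expressed Pdk3 at 12 to 21 and 25 to 29 (0.65, adjusted p = 0.0598 by limma). Pdk4, a kinase gene induced by fasting and glucocorticoids, varied within the groups, at 728 to 1299 in WT and 623 to 1227 in Mettl3 KO (log2 fold change 0.00). Ogdhl, an isoform of the 2-oxoglutarate dehydrogenase E1 component, was lower at 671, 458, 487 and 473 in Mettl3 KO against 691, 624, 772 and 595 in WT (log2 fold change -0.37, SE 0.09, adjusted p = 0.0132 by limma). It did not pass without WT replicate 1 (-0.35, adjusted p = 0.0503 by limma) or 3 (-0.30, adjusted p = 0.0541 by limma), or without Mettl3 KO replicate 2 (-0.31, adjusted p = 0.0887 by limma), 3 (-0.34, adjusted p = 0.0768 by limma) or 4 (-0.33, adjusted p = 0.0749 by limma). The component genes Pdha1, Pdhb, Dlat, Pdhx, Ogdh and Dlst had log2 fold changes from 0.00 to 0.06. Within each library Pdp2 to Pdk2 was 0.39 to 0.46 in WT and 0.675 to 0.719 in Mettl3 KO, while Pdp1 to Pdk4 was 0.211 to 0.361 in WT and 0.288 to 0.620 in Mettl3 KO and overlapped. These ratios are given with the values of the genes known and without a test. Whether the phosphatase genes of PDH and BCKDH differ in their response was not tested. Without the mean-variance trend Pdp2 was the gene of this list that passed (adjusted p = 0.0256 by limma).

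**Figure D4:**
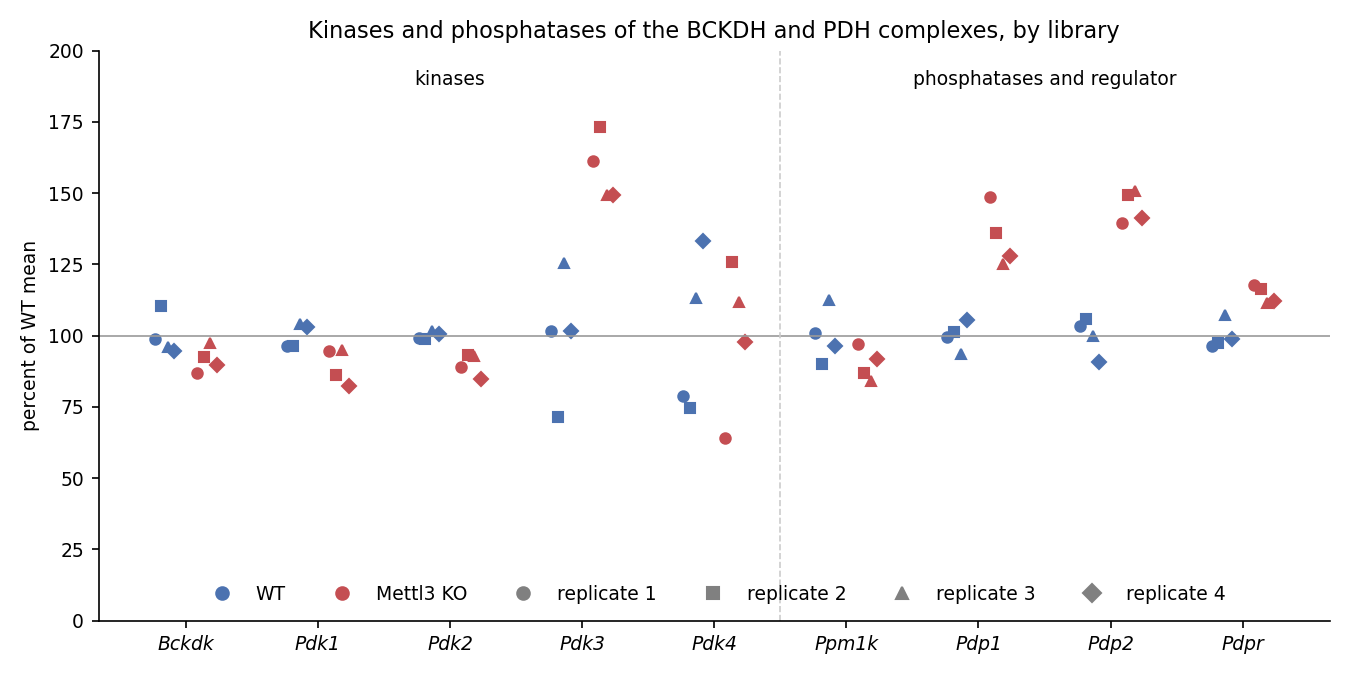
Level in each library as a percent of the WT mean of that gene (linear axis from 0) for the kinases and phosphatases of BCKDH (Bckdk, Ppm1k) and of PDH, in WT (blue) and Mettl3 KO (red), with the symbol giving the replicate number. Pdp1, Pdp2, Pdpr and Pdk3 of Mettl3 KO lie above all WT libraries, and Pdk1 and Pdk2 lie below them. Bckdk, Pdk4 and Ppm1k overlap, and Ppm1k has a Mettl3 KO mean of 90.0% of WT.

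Klf15 (ENSMUSG00000030087, mm39 chr6:90439558-90452220, plus strand) was at 145, 108, 168 and 162 in WT and at 134, 156, 161 and 163 in Mettl3 KO libraries. The Mettl3 KO values lay within the WT range, and the lowest library of all was WT replicate 2. The log2 fold change was 0.09 (SE 0.11, adjusted p = 0.729 by limma), and the 95% interval of -0.14 to 0.32, or 90.8% to 125% of WT, was the widest of the 7 genes. Without WT replicate 2 the value was -0.05 (adjusted p = 0.859 by limma). No other tested gene of the Krüppel-like family passed either (0 of 14 with limma and 0 with limma voom, against 7.91% of all tested genes, and 1 of 14, Klf13, at an unadjusted p under 0.05, against 20.6%). Klf9, a glucocorticoid-responsive relative and the highest of the family per kb of exon in WT, was at 750 to 849 in WT and 775 to 872 in Mettl3 KO (log2 fold change 0.01).

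The Klf15 promoter is shown for its matches to an element that clock factors are known to bind, since the transcripts of those factors are described next. It is the RefSeq window on GRCm38.p6 (a different build from the mm39 positions above), chr6:90462326-90462605, plus strand, from 250 bases before the annotated start of transcription to 30 bases into the gene. The E-box CACGTG, the core element bound by CLOCK and its partner BMAL1 among other factors, is in capitals.
Klf15 promoter: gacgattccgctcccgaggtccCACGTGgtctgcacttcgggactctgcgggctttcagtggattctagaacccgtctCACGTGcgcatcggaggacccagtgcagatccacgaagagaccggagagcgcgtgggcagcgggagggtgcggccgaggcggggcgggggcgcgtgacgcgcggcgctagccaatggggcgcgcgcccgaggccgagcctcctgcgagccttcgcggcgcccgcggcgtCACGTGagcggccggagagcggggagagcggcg
The E-box begins at positions -228, -172 and -3, where -1 is the last base before the start site. It reads the same on both strands. Of 32851 promoter windows of this length 6.79% held at least 1, 0.569% at least 2 and 0.0791% (26 windows) at least 3. Among windows of tested genes the shares were 8.84%, 0.888% and 0.114%. The Klf15 window has 72.9% GC, against a median of 52.5% over all windows, and these shares were not matched for GC. Promoter windows were given for 6 of the 7 genes, and none of the windows of Bcat2, Bckdha, Bckdhb, Bckdk and Ppm1k held an E-box of this form. The element CACCC (both strands), a core to which Krüppel-like factors bind, was found 2 times in a Bckdhb window, 1 time each in windows of Bcat2, Bckdk and Klf15, and not in those of Bckdha and Ppm1k, while 55.4% of all windows hold at least 1. A match shows the letters and not that a factor binds.

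Of 13 genes that are known to act on Klf15 or are known as its targets or as glucocorticoid-responsive genes, 1 was higher and 3 were lower in Mettl3 KO (30.8%, against 7.91% of all tested genes and 14.7% at a mean of 100 to 1000), with a median of -0.13. The BMAL1 gene, listed as Arntl, was at 181, 206, 212 and 146 in WT and at 164, 138, 151 and 133 in Mettl3 KO (log2 fold change -0.33, SE 0.10, adjusted p = 0.0447 by limma). Clock was at 940, 943, 952 and 878 in WT and at 872, 821, 856 and 783 in Mettl3 KO (log2 fold change -0.16, SE 0.05, adjusted p = 0.0363 by limma). Both are near the threshold. Leaving out any of WT replicates 1 to 3 or Mettl3 KO replicates 2 to 4 ended the call for either gene (adjusted p by limma from 0.0884 to 0.166 for Arntl and from 0.0608 to 0.121 for Clock). Without the mean-variance trend neither Arntl (adjusted p = 0.261 by limma) nor Clock (adjusted p = 0.272 by limma) passed. Arntl also missed the threshold with limma voom (adjusted p = 0.0557 by limma voom). Gpt2, the mitochondrial alanine aminotransferase gene, was at 173, 159, 196 and 136 in WT and at 141, 85, 94 and 105 in Mettl3 KO (log2 fold change -0.65, SE 0.13, adjusted p = 0.00183 by limma), with only replicate 1 of Mettl3 KO inside the WT range. It did not pass without the mean-variance trend (adjusted p = 0.126 by limma). Tsc22d3, a glucocorticoid-induced gene, was at 242, 208, 206 and 215 in WT and at 225, 258, 301 and 266 in Mettl3 KO (log2 fold change 0.26, SE 0.08, adjusted p = 0.0455 by limma), and failed the threshold in 11 of 17 alternatives, among them each omission of WT replicate 2, 3 or 4 or Mettl3 KO replicate 2, 3 or 4 (adjusted p by limma from 0.102 to 0.202). Fkbp5 (log2 fold change 0.46, adjusted p = 0.211 by limma), Per1 (0.09), Zbtb16 (-0.17), Gpt (-0.13) and Pdk4 (0.00) did not pass in the reported fit. Without Mettl3 KO replicate 1 Fkbp5 (adjusted p = 0.00606 by limma) and Per1 (adjusted p = 0.0258 by limma) passed. Nr3c1, the glucocorticoid receptor gene, was level at 827 to 853 and 800 to 866. The heart targets Kcnip2 (subunit of the transient outward potassium channel, log2 fold change -0.13, adjusted p = 0.121 by limma) and Slc2a4 (the insulin-responsive glucose transporter, -0.05) did not pass, nor did Prodh (proline dehydrogenase, -0.25, adjusted p = 0.128 by limma).

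The spread of Klf15 within the groups was shared by other genes. Over the 8 libraries, the 3 genes whose log2 profile was closest to that of Klf15, out of 12026 compared, were Rhobtb1 (root-mean-square difference 0.06), Tmem120a (0.09) and Txnip (0.09), where the median gene was at 0.25 and the other 6 genes described here at 0.21 to 0.27. Rhobtb1 was at 452, 340, 549 and 522 in WT and at 404, 461, 482 and 473 in Mettl3 KO libraries. Txnip, which restrains glucose uptake, was at 899, 687, 1094 and 1057 in WT and at 796, 1154, 1115 and 1083 in Mettl3 KO. Tmem120a was at 48, 39, 55 and 51 and at 39, 51, 55 and 51. Each of these genes, like Klf15, had its lowest WT value in replicate 2 and its lowest Mettl3 KO value in replicate 1. The likeness comes from 8 libraries and the choice of the closest genes, and is a description. Looked up after this was seen, the same libraries were lowest for 5.6% of 12027 tested genes with a mean of at least 20 and for 3 of the 13 genes linked to Klf15, namely Pdk4 (728 in WT replicate 2 and 623 in Mettl3 KO replicate 1), Fkbp5 (68 and 71) and Zbtb16 (376 and 286).

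**Figure D5:**
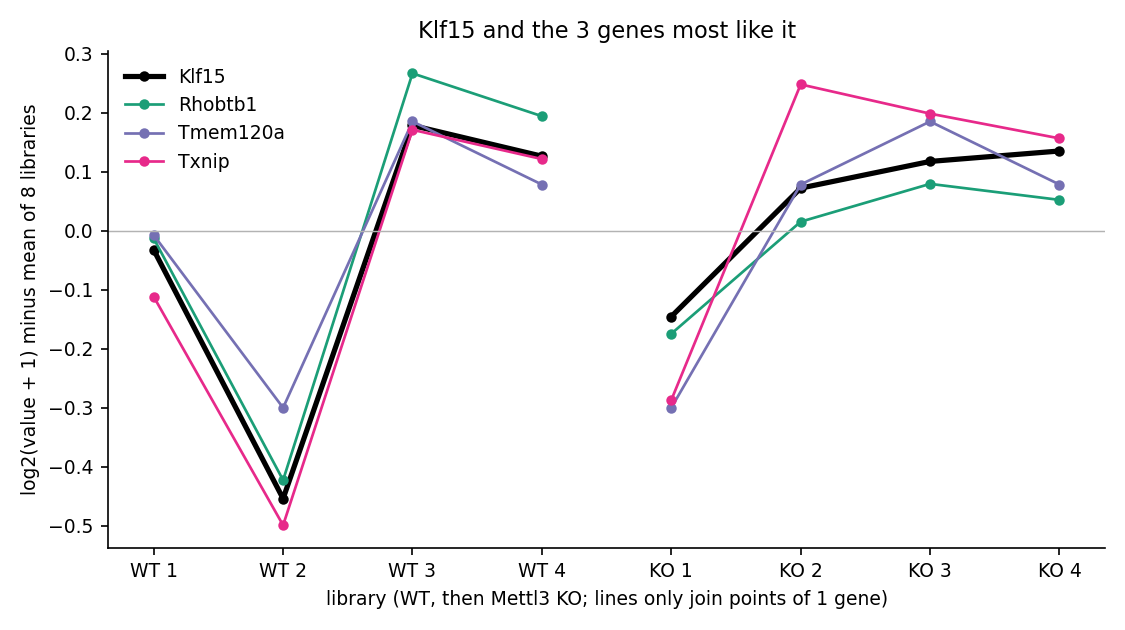
Klf15 (black) and the 3 genes with the closest profile, as log2(value + 1) minus the mean over 8 libraries (vertical axis), by library (horizontal axis, WT and then Mettl3 KO, with lines only joining points of a group). All 4 genes are lowest in WT replicate 2 within WT and in replicate 1 within Mettl3 KO.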

How the data were processed

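The deposited table holds 1 value per gene and library. Per the labels and methods, the authors trimmed 72-base reads (Trimmomatic 0.39), aligned them to mm39 with STAR 2.7.11a, removed duplicate (Picard 3.1.1), multi-mapping, ribosomal and mitochondrial reads, counted the rest by strand over exons of Ensembl 109 genes (featureCounts 2.0.4), leaving out reads on several genes, and normalized with DESeq2 1.36.0. The deposited values are a rounded score, namely DESeq2-normalized read counts as whole numbers, and not raw counts, so no count model was run.

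The log2(value + 1) of each gene was fitted by limma 3.58.1 under R 4.3.3 (moderated, mean-variance trend, genotype as the only term, two-sided), for 20313 genes with a mean of at least 1, with Benjamini-Hochberg adjustment over all of them and 95% intervals. The code was tested on simulated data. Low values gave each library's scaling factor and thereby its reads, 2731596 to 3060987 in WT and 2631902 to 3052105 in Mettl3 KO. Within a genotype, libraries differed by more than counting noise (chi-square per degree of freedom 1.12 to 2.02), so all 8 were kept apart.

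The rule takes the genes by symbol with no threshold on their values, but the genes and lists were chosen with earlier results of these data known. Named were the 7 genes, every gene past the threshold in the 5 pathway lists (cell type markers are given mostly as counts), the most abundant gene of a role where it helps, and the 3 genes with a mean of at least 20 closest in profile to Klf15. Other genes, such as Auh, Bcat1 and the PDH kinases, were named after their values were seen. Some genes of the lists are counted without their values being reported here. Exon lengths (GENCODE, GRCm38, matched by gene ID for 96.2% of tested genes), transcripts and RefSeq promoters (GRCm38.p6) come from another build than the table's, and no coordinates were converted. Dbt overlaps a same-strand entry with at most 4 in any library. The 17 alternatives covered scaling, voom, the trend, the filter, the pseudocount, a replicate block and each library left out, and another gene length was added after seeing the data.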

Additional observations from a re-analysis of the deposited data

Results flagged for a closer look

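Single libraries were searched among 48 groups for a value far from the other 3. A group was a gene, the summed normalized read counts or the recovered reads in a genotype. The gap to the nearest library as a share of the range had to exceed Dixon's critical value for 4 samples. There were 4 such groups, where 2.4 are expected by chance at 1 in 20.

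Bcat2 in Mettl3 KO had a share of 0.84, with replicate 1 at 315 and the others at 240 to 252. Mcee in Mettl3 KO (0.867) had replicate 1 at 191 and the others at 176 to 178. Ogdhl in Mettl3 KO (0.864) had replicate 1 at 671 and the others at 458 to 487. Clock in WT (0.838) had replicate 4 at 878 and the others at 940 to 952. Mettl3 KO replicate 1, which stood apart in 3 of the 4, was also the Mettl3 KO library in which Bmp10 was listed at 0, and a link between these values was not tested. Without it the log2 fold change of Bcat2 was -0.16 (adjusted p = 0.207 by limma) and that of Ogdhl -0.50 (adjusted p = 4.47e-05 by limma).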

How the results depend on the processing

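None of the 7 genes passed under any of the 17 alternatives. The direction turned in 2 cases, for Bckdha without WT replicate 4 (-0.0091, adjusted p = 0.962 by limma) and for Klf15 without WT replicate 2 (-0.046, adjusted p = 0.859 by limma). Leaving out a library in turn gave -0.16 to -0.03 for Bcat2, -0.0091 to 0.057 for Bckdha, -0.18 to -0.13 for Bckdhb, -0.15 to -0.08 for Bckdk, -0.11 to -0.02 for Dbt, -0.20 to -0.09 for Ppm1k and -0.046 to 0.165 for Klf15.

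Over all genes, 321 passed without the mean-variance trend and 1019 to 1596 with a library left out (1019 without Mettl3 KO replicate 3), against 1541 with voom and 1607 in the reported fit. Without the trend 0 of the other BCAA enzymes, 0 transport genes, 1 sister-complex gene (Pdp2, adjusted p = 0.0256 by limma) and 0 of the Klf15-linked genes passed. With voom 2 Klf15-linked genes passed. With a library left out the counts were 4 to 5 for the other BCAA enzymes, 0 to 1 for transport, 2 to 5 for the sister complexes and 1 to 6 for the Klf15-linked genes. The cause of these shifts was not tested. Auh passed in 1 alternative, Pdk1 in 3, Pdk2 in 4 and Pdk3 in 2.

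Libraries with the same replicate number did not deviate together (correlations 0.05, 0.04, -0.04 and 0.09), so the numbers were not taken as pairs. With the replicate block 1346 genes passed, no call among the 7 genes changed, and Tsc22d3 (adjusted p = 0.0979 by limma) and Fabp4 (adjusted p = 0.0732 by limma) did not pass. With 2631902 to 3060987 reads assigned per library and 4 libraries per genotype, the width of the 95% interval of each gene limits what could be seen, from 94.0% to 111% of WT for Bckdha to 90.8% to 125% for Klf15.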
